A study of Homo sapiens with 9 samples.

Results

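The 10 genes described here are noncoding RNAs that carry small nucleolar RNAs (snoRNAs) in their introns: SNHG1, SNHG5, SNHG6, SNHG8, SNHG12, SNHG15, SNHG16, SNHG29 (LRRC75A-AS1 in GENCODE 29), GAS5 and ZFAS1. The rule names them as host genes of snoRNAs and uses no measured value, though they were proposed with earlier results of these data known. They are 10 of the 56823 genes to which reads were summed. All 10 passed the filter on low counts. Their 162 listed transcripts were held apart in 2 classes, 50 that the annotation calls retained-intron transcripts and 112 others, called spliced here. The RNA came from H1975 cells, an established line grown out of a human lung adenocarcinoma, into which dCas9-KRAB had been placed under the doxycycline-inducible TRE promoter. dCas9-KRAB is a repressor that a guide RNA leads to its target, here TRIDENT, a long noncoding RNA. There were 3 libraries with the guide gRNA2 to TRIDENT, 3 with the guide gRNA1 to TRIDENT, and 3 with the NT gRNA as control. The cells of all 3 groups carried the repressor, grew with G418 and puromycin, and had 4 ug/ml doxycycline for 72 h. The labels do not say whether each group is 1 clone or a pool, nor that its replicates are separate cultures, so p-values measure the spread between these libraries, which may be technical.

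Library totals ran from 16918432 to 26466536 reads. The 10 hosts took 0.214% to 0.218% of the reads with gRNA2, 0.196% to 0.210% with gRNA1 and 0.221% to 0.223% in the control. Retained-intron transcripts of all genes together took 6.56% to 6.63%, 6.36% to 6.38% and 6.17% to 6.22% of the reads in the same order of groups, so the ranges did not overlap. The noncoding nuclear RNA MALAT1 took 3.71% to 4.03% with gRNA2, 3.22% to 3.32% with gRNA1 and 3.39% to 3.64% in the control, also without overlap, and mitochondrial genes took 5.78% to 6.20%, 5.72% to 6.61% and 5.37% to 5.68%, lowest in the control. The part of these shares in the results below was not tested. The 6 epithelial markers summed to 2138 to 2300.3 CPM with gRNA2, 2247 to 2280.1 CPM with gRNA1 and 2351 to 2488 CPM in the control, where CPM is the number of reads scaled to a common library total. Of 4 lung alveolar markers, NKX2-1 had a median of 58.0 CPM over the libraries and SFTPC a median of 0. Of 7 blood and stroma markers, CD68 had a median of 59.3 CPM, the largest, COL1A1 13.7, PTPRC 2.01, PECAM1 1.86 and DCN 0.957 CPM. CD3E had a median of 0, and HBB was at 0 in all 9 libraries. The sum of the 7 was 78.0 to 91.8 CPM with gRNA2, 74.1 to 80.5 CPM with gRNA1 and 76.3 to 81.5 CPM in the control. TRIDENT, matched to LINC02861, had 61, 60 and 42 reads with gRNA2, 36, 49 and 38 with gRNA1 and 49, 56 and 62 in the control. In CPM it had 2.52, 2.29 and 2.52 with gRNA2, 1.77, 2.09 and 1.87 with gRNA1 and 2.62, 2.28 and 2.85 in the control. At this low level every gRNA1 library lay below every gRNA2 and control library. Its fold over the control was 0.945 with gRNA2 (95% interval 0.753 to 1.19, adjusted p = 0.810). With gRNA1 it was 0.745 (95% interval 0.588 to 0.943, adjusted p = 0.128, unadjusted p = 0.0181 by edgeR's quasi-likelihood test). Neither passed after adjustment, so the groups are named by their labels. In bulk RNA such as this, fewer cells of a type and less RNA per cell cannot be told apart.

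Most human snoRNAs are cut out of introns after the host RNA has been spliced. Box C/D snoRNAs then guide methylation of ribosomal RNA and H/ACA snoRNAs guide the change of uridine to pseudouridine. In noncoding host genes, such as those described here, the spliced RNA that is left carries no long reading frame. For several of these noncoding hosts it is degraded by nonsense-mediated decay, a route that ends RNAs with early stop codons. Many host genes start with the 5′ terminal oligopyrimidine (TOP) tract also found in ribosomal protein genes.

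By the RefSeq snoRNA records with GENCODE 29, 38 snoRNAs lie inside the 10 hosts. GAS5 (chr1:173863900-173868882, minus strand), first described as a transcript that accumulates in growth arrest, holds 11. SNHG1 (chr11:62851988-62855914, minus strand) holds 9, SNORD22, SNORD25 to SNORD31 and an unnamed one. SNHG12 holds 4, SNHG16, SNHG29 and ZFAS1 hold 3 each, SNHG5 holds 2, and SNHG6, SNHG8 and SNHG15 hold 1 each. A whole snoRNA lies inside the exons of 39 of the 50 retained-intron transcripts and of 11 of the 112 spliced ones. The introns below show what separates the classes: each is removed in the leading spliced transcript of its gene and kept in a retained-intron transcript, SNHG1-209 or GAS5-201. They are given on the gene's strand in hg38, with the snoRNA in capitals and intron sequence in lower case.
SNHG1 intron with SNORD27 (chr11:62854939-62855132, minus strand): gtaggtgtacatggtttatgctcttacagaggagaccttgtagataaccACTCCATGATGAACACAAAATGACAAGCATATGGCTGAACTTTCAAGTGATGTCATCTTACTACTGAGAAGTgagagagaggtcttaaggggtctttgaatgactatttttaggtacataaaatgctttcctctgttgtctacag
GAS5 intron with SNORD47 (chr1:173864305-173864483, minus strand): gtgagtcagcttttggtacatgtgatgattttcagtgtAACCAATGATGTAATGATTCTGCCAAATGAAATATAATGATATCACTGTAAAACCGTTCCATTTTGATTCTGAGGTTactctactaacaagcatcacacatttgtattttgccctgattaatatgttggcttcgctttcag

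The snoRNAs themselves are shown for the hosts whose values differed most between groups, with the C box (TGATGA) and D box (CTGA) of box C/D snoRNAs, or the ACA near the end of H/ACA snoRNAs, in capitals where a search found them. TGATGA was found in the first 20 bases of 15 of the 22 box C/D sequences read, and CTGA in the last 12 bases of 21. ACA was found in the last 10 bases of 5 of the 6 H/ACA sequences. The first 3 lines belong to SNHG1, the next 3 to GAS5, and the last lines to SNHG8, SNHG15 and SNHG12.
SNORD25 (chr11:62855565-62855631, minus strand): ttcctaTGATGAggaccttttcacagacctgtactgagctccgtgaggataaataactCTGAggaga
SNORD29 (chr11:62853904-62853968, minus strand): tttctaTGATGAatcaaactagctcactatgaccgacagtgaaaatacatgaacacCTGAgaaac
SNORD31 (chr11:62853326-62853393, minus strand): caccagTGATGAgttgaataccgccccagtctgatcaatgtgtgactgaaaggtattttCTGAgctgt
SNORD44 (chr1:173865968-173866028, minus strand): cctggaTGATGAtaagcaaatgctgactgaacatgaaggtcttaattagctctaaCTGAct
SNORD76 (chr1:173866635-173866715, minus strand): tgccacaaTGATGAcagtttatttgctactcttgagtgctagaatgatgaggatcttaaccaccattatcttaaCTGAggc
SNORD81 (chr1:173864146-173864222, minus strand): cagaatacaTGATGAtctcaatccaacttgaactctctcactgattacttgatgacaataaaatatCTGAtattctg
SNORA24 (chr4:118279190-118279320, plus strand): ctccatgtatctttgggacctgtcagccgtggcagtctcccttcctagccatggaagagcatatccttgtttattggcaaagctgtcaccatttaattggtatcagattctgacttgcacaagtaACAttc
SNORA9 (chr7:44985378-44985510, minus strand): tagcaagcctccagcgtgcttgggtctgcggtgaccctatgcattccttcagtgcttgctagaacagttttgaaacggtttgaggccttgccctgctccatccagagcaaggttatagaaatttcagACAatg
SNORA61 (chr1:28579764-28579893, minus strand): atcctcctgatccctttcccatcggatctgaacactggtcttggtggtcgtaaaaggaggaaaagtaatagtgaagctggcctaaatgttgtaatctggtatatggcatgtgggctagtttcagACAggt

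RefSeq promoter sequences (GRCh38.p14) matched 8 of the 10 hosts, and the 75 bases from 50 before the start onward are shown because some hosts share start features. The capitals mark, first, TATAA where it lies within 45 to 16 bases before the start and, second, a C followed by at least 4 bases that are C or T and lying within 5 bases of the start. That tract was found in 5 of the 8 hosts and in 21.1% of 35116 promoters. TATAA in the upstream window and on the gene's strand was found in 4 of the 8, namely SNHG5, SNHG8, SNHG12 and ZFAS1, and in 4.1% of all promoters. SNHG1, GAS5 and SNHG29 had neither the tract nor this TATAA. On either strand and over all 300 bases, TATAA was found in 5 of the 8 and in 20.4% of all promoters. A match describes the letters only, and RefSeq starts may differ from those used in these cells. The GAS5 bases lie wholly upstream of the gene as counted, whose 5′ end is at chr1:173868882. A missing match there says nothing of the start of the counted gene. The bases of SNHG29, ZFAS1, SNHG8 and SNHG12 lie wholly inside the genes as counted.
SNHG1 (chr11:62855861-62855935, minus strand): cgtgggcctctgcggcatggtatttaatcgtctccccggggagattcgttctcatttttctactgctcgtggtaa
GAS5 (chr1:173869021-173869095, minus strand): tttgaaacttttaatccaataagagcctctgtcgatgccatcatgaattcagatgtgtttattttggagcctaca
SNHG29 (chr17:16438937-16439011, plus strand): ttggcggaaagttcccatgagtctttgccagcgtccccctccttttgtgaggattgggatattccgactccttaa
ZFAS1 (chr20:49278592-49278666, plus strand): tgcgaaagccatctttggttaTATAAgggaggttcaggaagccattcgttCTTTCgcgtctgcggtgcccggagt
SNHG5 (chr6:85678709-85678783, minus strand): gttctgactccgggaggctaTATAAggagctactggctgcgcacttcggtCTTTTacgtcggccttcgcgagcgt
SNHG16 (chr17:76557714-76557788, plus strand): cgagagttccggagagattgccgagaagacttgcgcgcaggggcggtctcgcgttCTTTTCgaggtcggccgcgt
SNHG8 (chr4:118278712-118278786, plus strand): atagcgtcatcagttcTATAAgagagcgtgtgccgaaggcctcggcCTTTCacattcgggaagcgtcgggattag
SNHG12 (chr1:28581849-28581923, minus strand): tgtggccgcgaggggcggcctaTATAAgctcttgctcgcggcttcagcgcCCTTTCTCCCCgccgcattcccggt

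Levels of the hosts were compared per length, as TPM summed over the transcripts of a gene. SNHG29, host of SNORD49A, SNORD49B and SNORD65, was the most abundant, with a lowest, median and highest level over the 9 libraries of 985, 1096 and 1177 TPM. SNHG6, host of SNORD87, followed with 695, 742 and 833 TPM, and SNHG5, host of SNORD50A and SNORD50B, with 522, 625 and 662 TPM. These 3 ranges did not overlap, so their order held in every library pairing. ZFAS1, which lies antisense to the start of ZNFX1 and hosts the SNORD12 family, had 435, 525 and 599 TPM, and GAS5 had 387, 476 and 503 TPM. The range of ZFAS1 overlapped those of both of its neighbours, SNHG5 and GAS5. SNHG16, host of the SNORD1 family, had 143, 161 and 165 TPM, SNHG1 had 106, 139 and 146 TPM and SNHG8 had 114, 135 and 170.5 TPM. SNHG16 overlapped SNHG1, and SNHG1 overlapped SNHG8. SNHG12 had 29.9, 34.6 and 40.4 TPM and SNHG15 17.0, 19.4 and 24.1 TPM, both apart from every other host.

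**Figure D1:**
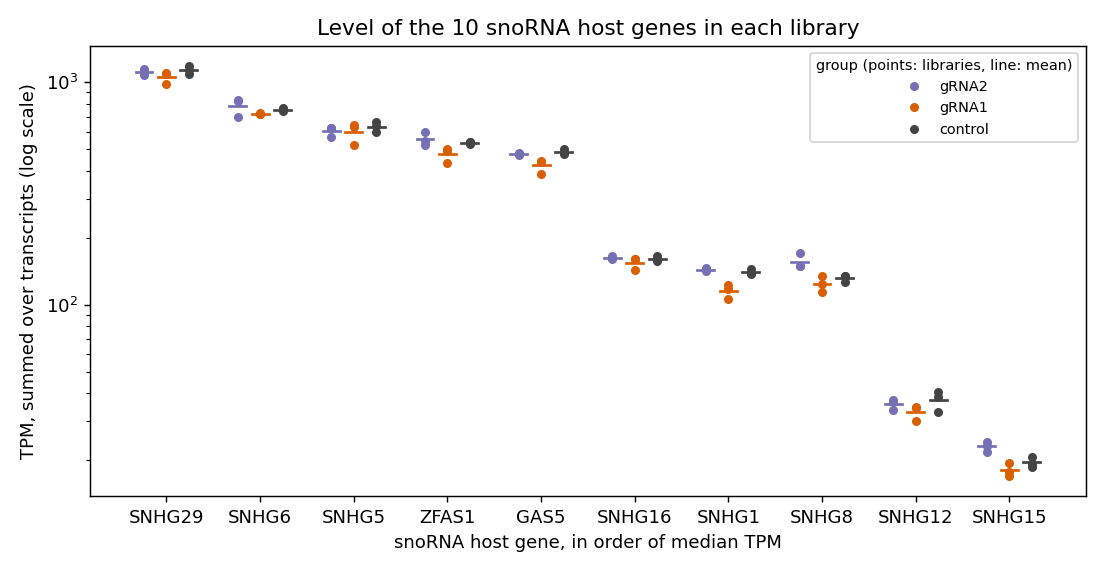
Level of each host gene in TPM (log axis), in order of the median over 9 libraries, with a point per library and a line at the mean of each group of 3. Levels run from SNHG29, between 985 and 1177 TPM, to SNHG15, between 17.0 and 24.1 TPM.

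The comparison of gRNA1 with the control asks which hosts differed under 1 of the guides to TRIDENT. SNHG1, GAS5, SNHG29, ZFAS1 and SNHG12 fell, to between 0.815 and 0.894 of the control, and no host rose. Thus 5 of 10 were lower at an adjusted p under 0.05. Of all 19658 genes tested, 7.08% passed in either direction and 3.58% were lower. Here and below, shares over all genes were not matched for level. The hosts had 21.1 to 834 CPM, while the genes tested included ones with few reads, such as TRIDENT. The median log2 fold change of the 10 was -0.17, against -3.45e-04 for all genes.

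SNHG1, whose box C/D snoRNAs include SNORD27 shown above, had 126, 134 and 125 CPM with gRNA2, 110.0, 106 and 104 CPM with gRNA1 and 135, 127 and 131 CPM in the control. All 3 gRNA1 libraries lay below the other 6, while gRNA2 and the control overlapped. The mean was 106 ± 3.24 CPM with gRNA1 and 131 ± 3.89 CPM in the control (SD, n = 3 each), 0.815-fold (95% interval 0.766 to 0.867, adjusted p = 8.07e-04) by edgeR's quasi-likelihood test with Benjamini-Hochberg adjustment, as are all adjusted p-values here. GAS5, whose spliced RNA can bind the glucocorticoid receptor, had 243, 249 and 246 CPM with gRNA2, 241, 237 and 218 CPM with gRNA1 and 266, 259 and 275.2 CPM in the control. Both guides lay below the control in all libraries, and gRNA1 lay below gRNA2. Its mean was 232 ± 11.96 CPM with gRNA1 and 267 ± 8.30 CPM in the control, 0.870-fold (95% interval 0.819 to 0.924, adjusted p = 0.00852).

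SNHG29 (chr17:16438822-16478678, plus strand) had 766, 763 and 758 CPM with gRNA2, 756, 737 and 711 CPM with gRNA1 and 834, 819 and 812 CPM in the control. Again both guides lay below every control library. The gRNA1 mean of 735 ± 23.0 CPM, against 821 ± 11.1 CPM in the control, gave 0.894-fold (95% interval 0.855 to 0.936, adjusted p = 0.00589). ZFAS1 (chr20:49278178-49295738, plus strand) had 238, 244 and 263 CPM with gRNA2, 222, 224 and 213 CPM with gRNA1 and 248, 242 and 251 CPM in the control, so that only the gRNA1 libraries stood apart. It was at 0.889-fold (95% interval 0.837 to 0.945, adjusted p = 0.0238) with gRNA1 over the control. SNHG12 (chr1:28578538-28583132, minus strand), the host of 3 H/ACA snoRNAs and SNORD99, had 34.1, 34.0 and 35.0 CPM with gRNA2, 33.4, 32.5 and 32.2 CPM with gRNA1 and 36.0, 37.8 and 37.8 CPM in the control, with both guides below the control, and 0.877-fold (95% interval 0.818 to 0.941, adjusted p = 0.0275) for gRNA1.

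The other 5 hosts did not pass with gRNA1. SNHG15, host of SNORA9, was at 0.887-fold (95% interval 0.810 to 0.972, adjusted p = 0.108), SNHG8, host of SNORA24, was at 0.925-fold (95% interval 0.859 to 0.997, adjusted p = 0.209), and SNHG6 was at 0.943-fold (95% interval 0.879 to 1.01, adjusted p = 0.328). In these 3, as in the 5 that were called, every gRNA1 library lay below every control library, which makes 8 of 10, against 14.6% of all genes. Over all 9 libraries SNHG6 ranged over 189.7 to 221 CPM. SNHG5 (chr6:85660950-85678748, minus strand), at 167 to 203 CPM over all libraries, was at 0.937-fold (adjusted p = 0.302) and SNHG16 (chr17:76557766-76565348, plus strand), at 255.8 to 288 CPM, was at 0.952-fold (adjusted p = 0.265), and in both the groups overlapped. With an offset for the average length of the transcripts, 2 of the 5 calls held, those of SNHG1 (adjusted p = 0.00870) and GAS5 (adjusted p = 0.0295). The GAS5 call ended without control replicate 3 (adjusted p = 0.0566). That of ZFAS1 ended without gRNA2 replicate 2, any single gRNA1 library or any single control library (adjusted p = 0.0580 to 0.103), and that of SNHG12 with DESeq2 (adjusted p = 0.0695), which called 4 hosts, or without gRNA2 replicate 2, any single gRNA1 library or control replicate 2 or 3 (adjusted p = 0.0594 to 0.126).

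**Figure D2:**
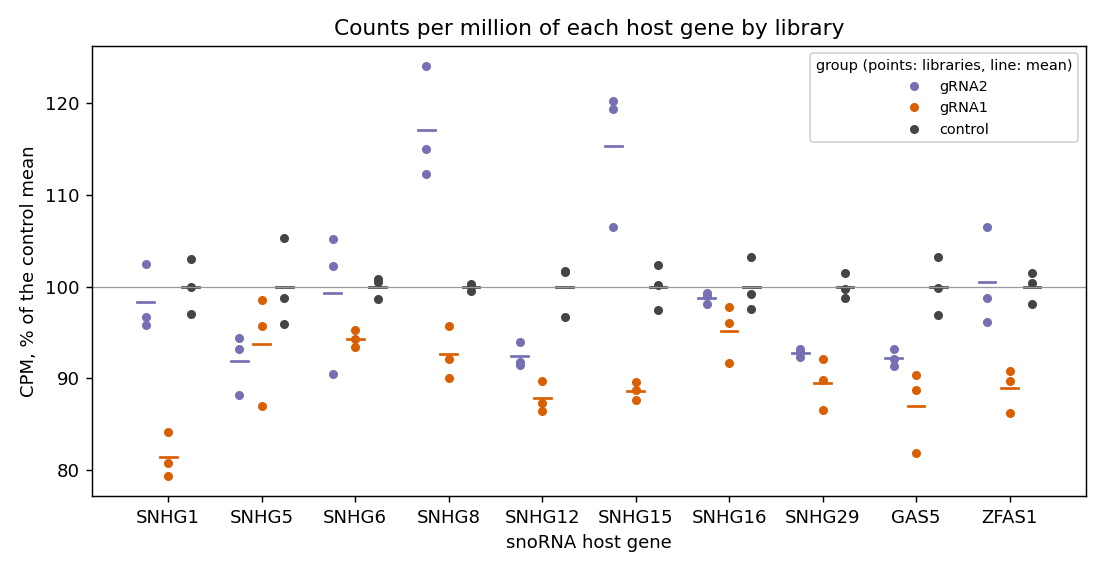
CPM of each host gene as a percent of its control mean, with a point per library and a line at the mean of each group of 3. The gRNA1 points of SNHG1, GAS5, SNHG29, ZFAS1 and SNHG12 lie below all of their control points, and the gRNA2 points of SNHG8 and SNHG15 lie above theirs.

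With gRNA2 the hosts went both ways. SNHG8 and SNHG15 rose over the control and SNHG29 fell, so 3 of 10 passed, where 8.44% of all genes passed, 3.69% higher and 4.75% lower. The median log2 fold change of the 10 hosts was -0.02, against 0.01 for all genes. Both guides were set against the same 3 control libraries.

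SNHG8 (chr4:118278709-118279823, plus strand) had 46.8, 51.7 and 47.98 CPM with gRNA2, 39.9, 37.5 and 38.4 CPM with gRNA1 and 41.5, 41.8 and 41.8 CPM in the control. The gRNA2 libraries lay above the other 6 and the gRNA1 libraries below the control, so the 3 groups did not overlap. Its mean was 48.9 ± 2.55 CPM with gRNA2 and 41.7 ± 0.167 CPM in the control, 1.17-fold (95% interval 1.09 to 1.26, adjusted p = 0.0105). SNHG15 (chr7:44983023-44986961, minus strand) had 28.95, 28.7 and 25.6 CPM with gRNA2, 21.1, 21.6 and 21.4 CPM with gRNA1 and 24.1, 23.5 and 24.6 CPM in the control, with the same order of groups, which is also that of the MALAT1 shares, and no overlap. It was at 1.16-fold (95% interval 1.06 to 1.27, adjusted p = 0.0413) with gRNA2 over the control. SNHG29 was at 0.928-fold (95% interval 0.887 to 0.971, adjusted p = 0.0443) in this comparison.

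GAS5 was at 0.922-fold (adjusted p = 0.0942), SNHG12 0.922-fold (adjusted p = 0.147) and SNHG5 0.919-fold (adjusted p = 0.156) with gRNA2 over the control. These 3 did not pass, although every gRNA2 library lay below every control library. Together with SNHG29 that makes 4 of 10 below, against 13.7% of all genes, beside SNHG8 and SNHG15 above, 2 of 10 against 13.6%. SNHG1 was at 0.984-fold (adjusted p = 0.799), ZFAS1 1.00-fold (adjusted p = 0.952), SNHG6 0.992-fold (adjusted p = 0.922) and SNHG16 0.988-fold (adjusted p = 0.820), and in each the groups overlapped. None of the 3 calls held with the length offset. The call of SNHG8 also ended without gRNA2 replicate 2 (adjusted p = 0.0856). That of SNHG15 ended with DESeq2 (adjusted p = 0.0958), in a fit of only these groups (adjusted p = 0.0684) and without gRNA2 replicate 1 or 2, gRNA1 replicate 1 or 2 or any single control library (adjusted p = 0.0604 to 0.165). That of SNHG29 ended in the fit of only these groups (adjusted p = 0.0550) and without any single gRNA2 library, gRNA1 replicate 1 or 2 or any single control library (adjusted p = 0.0545 to 0.167). DESeq2 called 1 host higher, SNHG8, and 2 lower, SNHG29 and GAS5, the GAS5 value being 0.918-fold (adjusted p = 0.0376).

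The direct comparison of the guides showed 4 hosts higher with gRNA2 than with gRNA1, SNHG15, SNHG8, SNHG1 and ZFAS1, and 0 lower. Of all genes 6.22% passed in either direction and 3.12% were higher. SNHG15 was at 1.31-fold (95% interval 1.19 to 1.43, adjusted p = 0.00152), SNHG8 was at 1.27-fold (95% interval 1.18 to 1.36, adjusted p = 8.12e-04), SNHG1 was at 1.21-fold (95% interval 1.14 to 1.29, adjusted p = 0.00125) and ZFAS1 was at 1.13-fold (95% interval 1.06 to 1.201, adjusted p = 0.0206). Every gRNA2 library lay above every gRNA1 library in these 4 and also in SNHG12, SNHG16, SNHG29 and GAS5, 8 of 10 against 11.9% of all genes. The last 4 had between 1.04-fold and 1.06-fold and did not pass. The same 3 gRNA1 libraries enter this 8 of 10 and the earlier 8 of 10 below the control, so the counts are not separate. The 10 hosts had a median log2 fold change of 0.08, against 0.00388 for all genes. With the length offset only SNHG1 still passed (adjusted p = 0.0146). The call of ZFAS1 also ended without gRNA2 replicate 2 or 3 or any single gRNA1 library (adjusted p = 0.0559 to 0.0801).

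**Figure D3:**
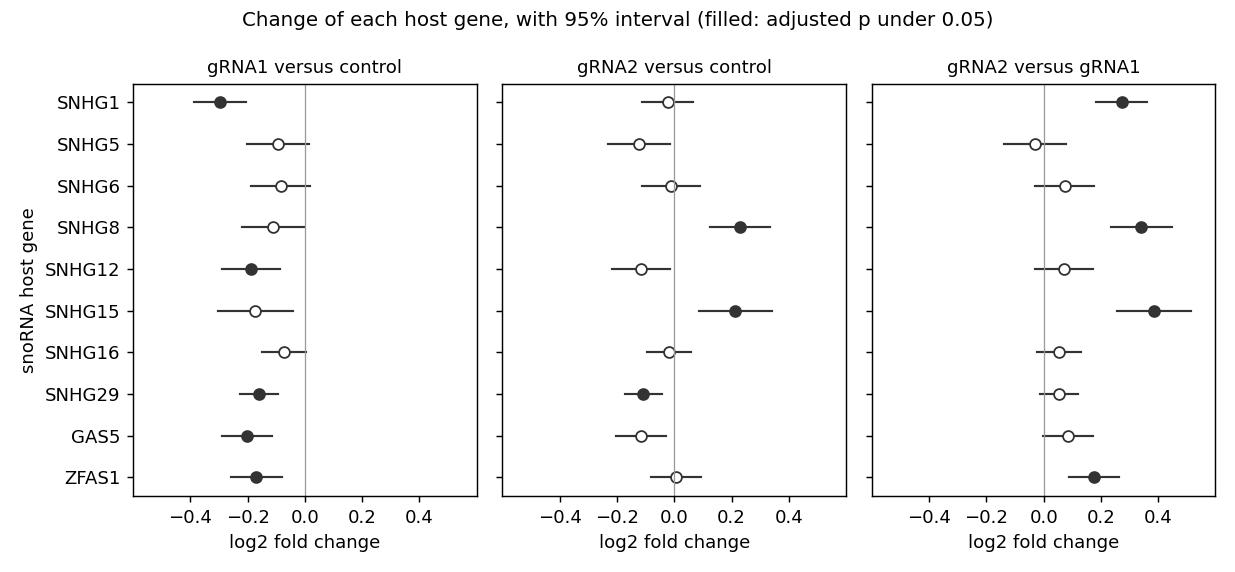
Log2 fold change of each host gene in the 3 comparisons, with lines for the 95% interval and filled points for an adjusted p under 0.05. Filled points lie left of 0 for 5 hosts with gRNA1 over the control, on both sides with gRNA2 over the control, and right of 0 for 4 hosts with gRNA2 over gRNA1.

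Spliced and retained-intron reads were then set apart. SNHG12 had the largest share of retained-intron reads among the 7 hosts with such transcripts, with 78.2%, 83.6% and 85.5% with gRNA2, 80.3%, 83.7% and 85.4% with gRNA1 and 87.3%, 82.8% and 80.6% in the control. The groups overlapped. SNHG1 had 58.5%, 61.1% and 57.1% with gRNA2, 68.4%, 63.9% and 64.7% with gRNA1 and 64.4%, 69.0% and 64.7% in the control. Here the gRNA2 libraries lay below the other 6. GAS5 had 31.4%, 31.8% and 32.8% with gRNA2, 36.0%, 35.2% and 35.0% with gRNA1 and 34.6%, 36.5% and 34.3% in the control, again with gRNA2 below the rest. Shares of SNHG6, SNHG29, SNHG16 and SNHG5 lay between 2.09% and 6.52% in all libraries. SNHG8, SNHG15 and ZFAS1 have no transcript annotated as retained intron. Over all genes the share of retained-intron reads was highest with gRNA2, while those of SNHG1 and GAS5 were lowest there.

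**Figure D4:**
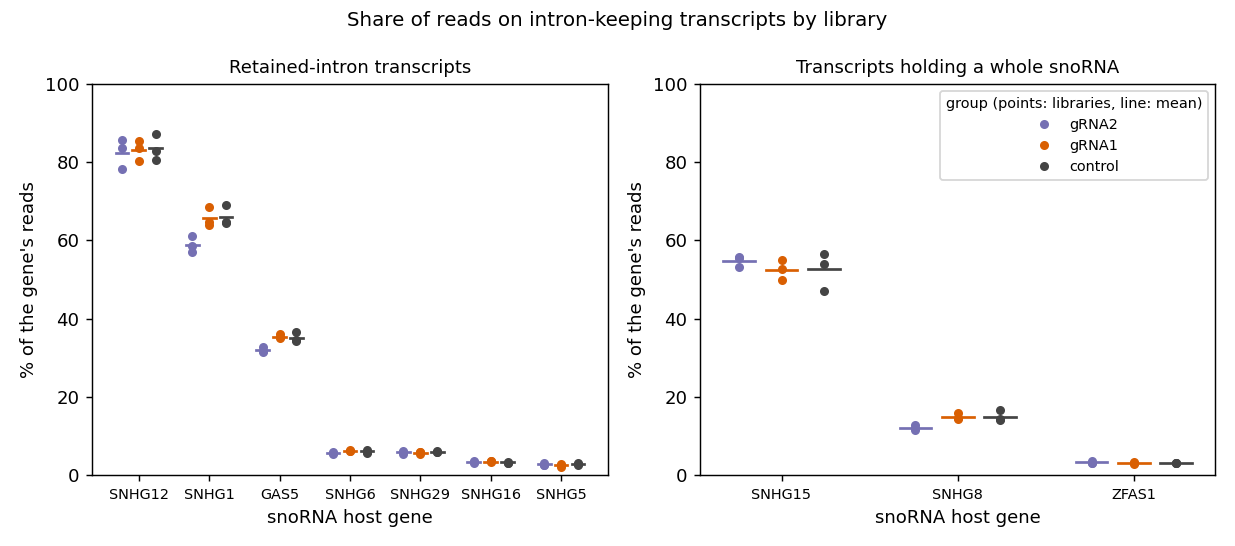
Percent of the reads of each host on retained-intron transcripts (left) and, for the hosts with none annotated, on transcripts that hold a whole snoRNA (right), with a point per library and a line at the mean of each group of 3. The gRNA2 points of SNHG1 lie between 57.1% and 61.1%, below the gRNA1 and control points.

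The spliced class of SNHG1 had 52.2, 52.0 and 53.7 CPM with gRNA2, 34.9, 38.2 and 36.7 CPM with gRNA1 and 48.03, 39.3 and 46.2 CPM in the control. The gRNA2 libraries were highest and the gRNA1 libraries lowest, with no overlap, the order of the MALAT1 shares. Its retained-intron class had 73.6, 81.6 and 71.5 CPM with gRNA2, 75.4, 67.6 and 67.3 CPM with gRNA1 and 86.7, 87.6 and 84.7 CPM in the control, where both guides lay below the control. The spliced class was higher with gRNA2 than with gRNA1, 1.44-fold (adjusted p = 0.00185), while the retained class was at 1.08-fold (adjusted p = 0.381). Set against the control, gRNA2 gave 1.18-fold (adjusted p = 0.0597) for the spliced class and 0.877-fold (adjusted p = 0.0847) for the retained class. Neither of these passed alone. With gRNA1 over the control the spliced class was at 0.824-fold (adjusted p = 0.0502), and the retained class fell, 0.811-fold (adjusted p = 0.0156). The call of the retained class ended without gRNA1 replicate 2 or 3 or control replicate 2 (adjusted p = 0.0526 to 0.0790).

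A test of unequal change of the classes within a gene asked whether the log2 fold change of retained-intron reads differed from that of spliced reads. In SNHG1 the difference, retained minus spliced, was -0.43 (adjusted p = 0.0215) with gRNA2 over the control and -0.41 (adjusted p = 0.0497) with gRNA2 over gRNA1. It was -0.02 (adjusted p = 0.951) with gRNA1 over the control. SNHG1 was the only 1 of 7 hosts called in the first of these, where 2.25% of 6317 genes passed and 0.190%, 12 genes with SNHG1 among them, had a negative difference. The median difference over those genes was 0.13. In the second, SNHG1 was again the 1 of 7, where 0.886% passed and 0.111% had a negative difference. With gRNA1 over the control 0 of 7 hosts passed, also 0 at an unadjusted p under 0.05, against 0.301% of the genes. The call against the control ended without gRNA2 replicate 1 or 3 or control replicate 2 or 3 (adjusted p = 0.0512 to 0.0932). That against gRNA1 ended in 12 of 14 alternatives, among them the fit without any single gRNA2 library, any single gRNA1 library or control replicate 1 or 3 (adjusted p = 0.0563 to 0.218).

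GAS5 had a spliced class of 166, 169 and 165 CPM with gRNA2, 154, 153 and 142 CPM with gRNA1 and 174, 164 and 181 CPM in the control. The gRNA1 libraries lay below the other 6. Its retained-intron class had 76.1, 78.9 and 80.5 CPM with gRNA2, 86.9, 83.5 and 76.5 CPM with gRNA1 and 92.3, 94.4 and 94.6 CPM in the control, with both guides below the control. The retained class fell with gRNA2 over the control, 0.836-fold (adjusted p = 0.0116), and the spliced class was at 0.963-fold (adjusted p = 0.546). With gRNA1 over the control the spliced class fell, 0.867-fold (adjusted p = 0.0267), and the retained class was at 0.877-fold (adjusted p = 0.0534). The difference between the classes did not pass, at -0.20 (adjusted p = 0.129) with gRNA2 over the control and -0.22 (adjusted p = 0.151) with gRNA2 over gRNA1. The call of the retained class with gRNA2 ended without gRNA2 replicate 2 or control replicate 3 (adjusted p = 0.0518 to 0.0530). That of the spliced class with gRNA1 ended without gRNA2 replicate 2, any single gRNA1 library or control replicate 1 or 3 (adjusted p = 0.0521 to 0.117).

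**Figure D5:**
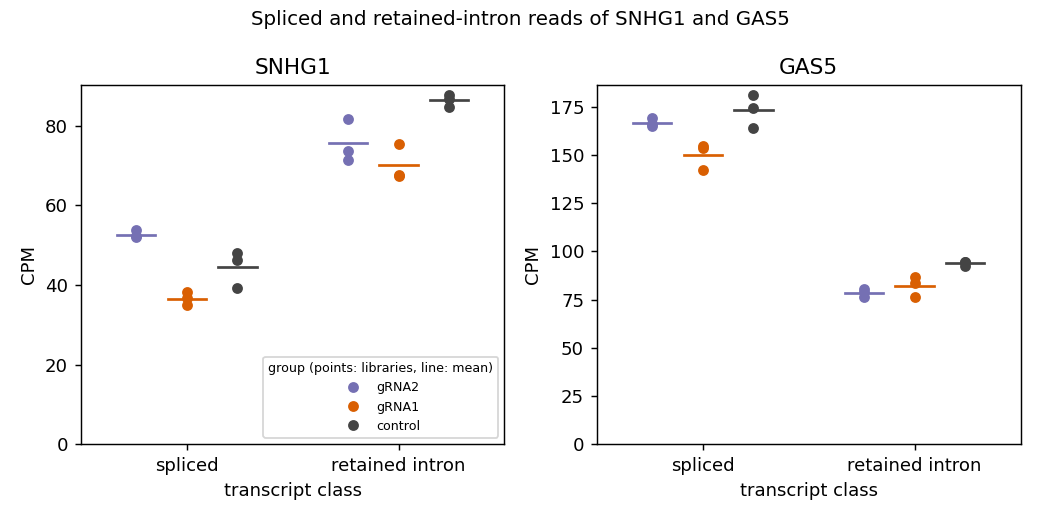
CPM of the spliced and retained-intron classes of SNHG1 (left) and GAS5 (right), with a point per library and a line at the mean of each group of 3. Spliced SNHG1 lies between 52.0 and 53.7 CPM with gRNA2, above the gRNA1 and control points, while the retained class of both genes lies below the control points with both guides.

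Among the other hosts, both classes of SNHG29 fell with gRNA1, the spliced class 0.898-fold (adjusted p = 0.0176) and the retained class 0.854-fold (adjusted p = 0.0353). Of the spliced classes, 2 of 10 passed in that comparison, against 2.13% of all spliced classes lower and 4.31% in either direction, and of the retained classes 2 of 7, against 0.591% lower and 1.82% in either direction. The SNHG29 calls ended without gRNA1 replicate 2 or any single control library (adjusted p = 0.0509 to 0.0699) for the spliced class, and without any single gRNA1 library or any single control library (adjusted p = 0.0596 to 0.113) for the retained class. The spliced class of SNHG8 rose with gRNA2 over the control, 1.17-fold (adjusted p = 0.0243), 1 of 10 against 2.16% higher and 6.36% in either direction. GAS5 was the 1 of 7 retained classes, against 0.439% lower and 2.95% in either direction. The call of SNHG8 ended without gRNA2 replicate 2 or any single control library (adjusted p = 0.0740 to 0.121). Between the guides, the spliced classes of SNHG1, SNHG8 and SNHG15 were higher with gRNA2, 3 of 10 against 1.61% higher and 4.11% in either direction. Of the retained classes 0 of 7 passed, also 0 at an unadjusted p under 0.05 and 0 with DESeq2, against 1.86%. SNHG8 and SNHG15 have no annotated retained-intron transcript, so their spliced class is the whole gene and repeats its result.

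When the classes were formed instead by whether a transcript holds a whole snoRNA, all 10 hosts had both. SNHG15 had 53.1%, 55.8% and 55.5% with gRNA2, 55.0%, 49.8% and 52.7% with gRNA1 and 54.0%, 56.6% and 47.2% in the control of its reads on such transcripts, with overlapping groups. Its snoRNA-holding class was higher with gRNA2, 1.36-fold over gRNA1 (adjusted p = 0.00334) and 1.21-fold over the control (adjusted p = 0.0428). Its class without a snoRNA did not pass, at 1.24-fold (adjusted p = 0.0865) and 1.11-fold (adjusted p = 0.404). The difference between these classes did not pass either, at 0.14 (adjusted p = 0.576) and 0.12 (adjusted p = 0.561). SNHG8 had 12.8%, 12.2% and 11.7% with gRNA2, 14.5%, 14.6% and 15.98% with gRNA1 and 16.7%, 14.4% and 14.1% in the control. The gRNA2 libraries of SNHG8 lay below the other 6, but its difference between classes, -0.34 (adjusted p = 0.151) against the control and -0.35 (adjusted p = 0.0803) against gRNA1, did not pass. ZFAS1 had between 2.87% and 3.80% in all libraries. By this division SNHG1 again had a negative difference with gRNA2, -0.29 (adjusted p = 0.0255) over the control and -0.28 (adjusted p = 0.0159) over gRNA1, and GAS5 had -0.24 (adjusted p = 0.0301) over gRNA1. These were tests over 76 genes. Against the control 2.63% of them passed, 1.32% with a negative difference, namely SNHG1. Against gRNA1 11.8% passed, 2.63% with a negative difference, namely SNHG1 and GAS5.

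Single transcripts show where the reads lay, as levels in TPM that Salmon divided among overlapping isoforms. The leading spliced transcript of SNHG1, SNHG1-211, of 1071 nt in 9 exons, had 42.6, 47.9 and 50.6 TPM with gRNA2, 32.5, 30.1 and 28.996 TPM with gRNA1 and 36.2, 32.2 and 31.4 TPM in the control. The gRNA2 libraries were above the other 6. The leading retained-intron transcript, SNHG1-209, of 2768 nt with 6 whole snoRNAs in its exons, had 11.1, 13.5 and 11.7 TPM with gRNA2, 11.3, 10.3 and 10.0 TPM with gRNA1 and 13.3, 13.1 and 12.9 TPM in the control. Its gRNA1 libraries lay below the control and overlapped gRNA2. GAS5-221, the leading spliced transcript of GAS5, of 632 nt in 12 exons, had 198, 193 and 189 TPM with gRNA2, 169, 168 and 144 TPM with gRNA1 and 199.5, 176 and 195 TPM in the control. Its gRNA1 libraries lay below the rest, while GAS5-201, the leading retained-intron transcript, ranged over 14.6 to 20.4 TPM with overlapping groups. The leading transcript of SNHG8, SNHG8-201, had 47.1, 40.3 and 48.03 TPM with gRNA2, 30.2, 31.2 and 35.3 TPM with gRNA1 and 37.1, 36.1 and 34.6 TPM in the control, with gRNA2 above the rest. That of SNHG15, SNHG15-202, which holds SNORA9 in 1 of its 2 exons, had 4.29, 4.64 and 4.23 TPM with gRNA2, 3.32, 3.12 and 3.01 TPM with gRNA1 and 3.56, 3.80 and 3.17 TPM in the control, also with gRNA2 above the rest.

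Of the 38 snoRNAs inside the hosts, 24 have a transcript of their own in the tables, of which 13 were at 0 in all 9 libraries, and the 24 together had 857 reads. SNORA61 had 386 and SNORD99 152, both in SNHG12, and SNORD12B in ZFAS1 had 115. Library preparation from total RNA of this kind recovers few RNAs as short as mature snoRNAs, so these reads give no level of the snoRNAs.

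Some reads could belong to other genes, near or far in the genome. The share of 31-base words of a host that also occur, on either strand, in transcripts of other genes was 36.8% for ZFAS1, 34.6% for SNHG16 and 30.4% for SNHG6. It was 14.8% for SNHG12, 13.4% for SNHG29, 10.0% for SNHG8, 8.68% for SNHG1 and 5.21% for SNHG5, and the lowest shares were 2.69% for GAS5 and 2.68% for SNHG15. Without words of small RNAs it was 0 for SNHG1, SNHG8 and SNHG15. The strand setting of the quantification is not given in the sources used here, so values of ZFAS1, SNHG29 and other hosts that overlap a gene on the other strand are uncertain.

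Other genes of the pathway were counted by list, beside the share of all genes called. Of 16 other noncoding hosts tested, 1 was higher and 3 were lower with gRNA1 over the control, where 7.08% of all genes were called, with a median log2 fold change of -0.12. SNHG32 had 40.9 ± 2.05 CPM with gRNA1 and 53.8 ± 0.734 CPM in the control (0.761-fold, adjusted p = 2.22e-04), SNHG7 was at 0.865-fold (adjusted p = 0.0134) and SNHG3 0.907-fold (adjusted p = 0.0299), while SNHG14, host of the imprinted SNORD115 and SNORD116 clusters, was at 1.13-fold (adjusted p = 0.0234). Set against the control, gRNA2 gave 0 of 16, against 8.44% of all genes, 2 at an unadjusted p under 0.05 and 0 with DESeq2, with a median of 0.06. Between the guides, SNHG32 was at 1.34-fold (adjusted p = 1.37e-04) and EPB41L4A-AS1 1.19-fold (adjusted p = 0.0183), both higher, 2 of 16 against 6.22% called over all genes, and the median was 0.13.

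Of 47 protein-coding hosts tested, 6 were lower with gRNA1 over the control, against 3.58% of all genes, and 17 lower with gRNA2 over the control, against 4.75% of all genes. None was higher in either, and the median log2 fold changes were -0.04 and -0.09. EIF4A2, a translation initiation helicase, had 576 ± 12.70 CPM with gRNA1 and 725 ± 26.54 CPM in the control (0.794-fold, adjusted p = 7.08e-05). TAF1D, a subunit of the selectivity factor of RNA polymerase I, was at 0.848-fold (adjusted p = 0.00520), RPSA, a small-subunit ribosomal protein, was at 0.913-fold (adjusted p = 0.0209) and the import receptor TNPO2 was at 0.882-fold (adjusted p = 0.0211). RPSA had 764 ± 17.4 CPM with gRNA2 and 906 ± 15.5 CPM in the control (0.844-fold, adjusted p = 3.19e-04). In the same comparison the chaperone HSPA8 was at 0.835-fold (adjusted p = 6.75e-04), EIF4A1 0.878-fold (adjusted p = 0.00146) and the chromatin remodeller CHD8 0.885-fold (adjusted p = 0.00863). Between the guides, 8 of 47 passed, against 6.22% of all genes. Of these, 4 were higher with gRNA2, among them EIF4A2 with 1.15-fold (adjusted p = 0.00339), TNPO2 with 1.18-fold (adjusted p = 0.00421) and TAF1D with 1.15-fold (adjusted p = 0.0130), and 4 were lower, among them HSPA8 with 0.879-fold (adjusted p = 0.00668). The median there was -0.06.

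Of 21 genes for proteins of the snoRNA particles and their assembly, 0 passed with gRNA1 over the control, against 7.08% of all genes, 5 at an unadjusted p under 0.05 and 1 with DESeq2. Under gRNA2, 1 of 21 was lower than in the control, against 4.75% of all genes, namely NHP2, a core H/ACA protein, with 0.879-fold (adjusted p = 0.0342). Between the guides 2 of 21 were higher with gRNA2, against 3.12% of all genes higher and 6.22% called, the pseudouridine synthase DKC1 with 1.09-fold (adjusted p = 0.0491) and NOLC1 with 1.09-fold (adjusted p = 0.0499). Median log2 fold changes were -0.06, -0.08 and -0.03 for gRNA1 over the control, gRNA2 over the control and gRNA2 over gRNA1.

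Of 16 factors of nonsense-mediated decay, 2 passed with gRNA1 over the control, against 7.08% of all genes, both higher, RBM8A with 1.17-fold (adjusted p = 0.0187) and the kinase SMG1 with 1.10-fold (adjusted p = 0.0252). Under gRNA2 SMG1 was higher than in the control, 458 ± 13.6 CPM with gRNA2 and 389 ± 11.5 CPM in the control (1.18-fold, adjusted p = 0.00104), and EIF4A3 and SMG8 were lower, 0.894-fold (adjusted p = 0.0252) and 0.848-fold (adjusted p = 0.0311). The 3 of 16 compare with 8.44% of all genes. RBM8A was lower with gRNA2 than with gRNA1, 1 of 16 against 6.22% called over all genes, 0.850-fold (adjusted p = 0.0141). In the same order of comparisons the medians were -0.01, -0.01 and -0.04.

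Of 20 translation factors and other genes with 5′ TOP tracts, 0 passed with gRNA1 over the control, against 7.08% of all genes, 4 at an unadjusted p under 0.05 and 3 with DESeq2. Under gRNA2, 7 of 20 were lower than in the control, against 4.75% of all genes, and 0 higher. Medians were -0.02, -0.10 and -0.07 in that order of comparisons. EEF1A1, an elongation factor, had 6024 ± 32.8 CPM with gRNA2 and 6752 ± 120.2 CPM in the control (0.892-fold, adjusted p = 6.40e-04), HNRNPA1, an RNA-binding protein, was at 0.905-fold (adjusted p = 0.0130), EIF3F was at 0.892-fold (adjusted p = 0.0182) and the nucleolar chaperone NPM1 was at 0.901-fold (adjusted p = 0.0191). Between the guides 3 of 20 were lower with gRNA2, against 6.22% of all genes called, HNRNPA1 with 0.880-fold (adjusted p = 0.00317), EEF1A1 with 0.933-fold (adjusted p = 0.0172) and EIF4B with 0.915-fold (adjusted p = 0.0323). Of the 34 list calls with the lowest adjusted p, at most 4 per list and comparison, 12 held with each of the 9 libraries left out in turn. They were EEF1A1 with gRNA2 over the control, EIF4A1 with gRNA2 over the control, EIF4A2 with gRNA1 over the control, EIF4A2 with gRNA2 over gRNA1, HNRNPA1 with gRNA2 over gRNA1, HSPA8 with gRNA2 over the control, RPSA with gRNA2 over the control, SMG1 with gRNA2 over the control, SNHG32 with gRNA1 over the control, SNHG32 with gRNA2 over gRNA1, TAF1D with gRNA1 over the control and TNPO2 with gRNA2 over gRNA1. The other 22 ended without at least 1 library (adjusted p up to 0.256).

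The mean of the 10 hosts over the libraries, as log2 deviation from the mean of all 9, was 0.02, 0.07 and 0.05 with gRNA2, -0.07, -0.09 and -0.14 with gRNA1 and 0.04, 0.04 and 0.07 in the control. The gRNA1 libraries were below the other 6. Among 6080 other genes whose log2 CPM averaged 5 or more, those with the most like pattern by Pearson's r over the 9 libraries were WEE1 (r = 0.977), UGCG (r = 0.976), KLF11 (r = 0.974), ZNF702P (r = 0.973) and OCLN (r = 0.968). These values are a description of 9 libraries in 3 groups, with no test.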

How the data were processed

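Total RNA after ribosomal RNA depletion was sequenced from 9 libraries, grouped by their labels. The authors quantified transcripts with Salmon 1.4.0, on hg38, per the submitters' processing notes, and deposited 1 table per library with an estimated count of reads per transcript and TPM, which is scaled by transcript length and library. The strand setting is not given in the sources used here. GENCODE 29 held 95.7% of the 211939 transcripts of a table, by identifier, and the unmatched ones, with 1.26% to 1.33% of reads, were not used.

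Estimated counts were summed to 56823 genes, and separately to the retained-intron and other transcripts of each gene, and rounded. The TPM values entered no test apart from those with the length offset, where they weighted the average transcript length of a gene. edgeR 4.0.16 (R 4.3.3) kept 19658 genes, or 25887 gene classes, by filterByExpr, scaled libraries by TMM and ran two-sided quasi-likelihood F tests in 1 fit of all 9 libraries, with Benjamini-Hochberg adjustment over everything tested and a threshold of 0.05. Unequal change of the classes was tested with edgeR's diffSpliceDGE over 6317 genes. The biological coefficient of variation was 0.051. The 95% intervals of folds come from edgeR's own estimate of error. The tests were checked on simulated data. Per library, the hosts had between 427 reads (SNHG15) and 20112 reads (SNHG29). The members and gene lists were chosen with earlier results of these data known. Named genes are all members, the target, up to 4 genes per list and comparison with the lowest adjusted p, and the 5 genes most like the mean of the members. Of 6 epithelial markers, 2 were lower with gRNA2 and 2 with gRNA1 over the control, against 4.75% and 3.58% of all genes lower. Between the guides 1 was lower with gRNA2, against 6.22% of all genes called. Of 3 lung markers tested, 1 was higher with gRNA2 over the control, against 3.69% of all genes higher. With gRNA1 over the control 0 passed (2 at an unadjusted p under 0.05, 0 with DESeq2), against 7.08% of all genes called. Between the guides 1 was lower with gRNA2, against 6.22% called. Of 5 blood and stroma markers, 0 passed in any comparison, by edgeR or DESeq2, with 0, 0 and 1 at an unadjusted p under 0.05 for gRNA2 over the control, gRNA1 over the control and gRNA2 over gRNA1. Of all genes 8.44%, 7.08% and 6.22% were called in these comparisons.

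Alternatives were DESeq2 1.42.0, scaling by RLE, keeping genes with low counts, fits with the replicate number as a block or with the 2 groups of a comparison alone, an offset for the average transcript length, classes by whole snoRNAs in exons, and leaving out each library in turn. Running them for the named list genes, the genes most like the hosts, the target and the list counts was added after seeing the data. Sequences came from GENCODE 29 transcripts and RefSeq (GRCh38.p14) tables. Sums, sequence searches and figures used Python 3.11.15, pandas 2.3.3, numpy 2.4.6 and matplotlib 3.10.9.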

Additional observations from a re-analysis of the deposited data

How the results depend on the processing

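Over 1508 values of single hosts and classes under the alternatives, 0 calls reversed direction, 93 values fell short of the threshold and 36 newly passed it. Values that did not pass could change sides. SNHG6 with gRNA2 over the control, at 0.992-fold, ranged over 0.965-fold to 1.04-fold. The retained class of SNHG16 in that comparison, at 0.988-fold, went as low as 0.946-fold. The snoRNA-holding class of SNHG16, a different set of transcripts, was at 1.10-fold. The length offset moved the gene counts most: 2, 0 and 1 hosts passed with gRNA1 over the control, gRNA2 over the control and gRNA2 over gRNA1, and 538, 434 and 446 of all genes. The cause was not tested. In the fit of only the 2 groups compared, 1 host passed with gRNA2 over the control, and 0 hosts showed unequal class change with gRNA2 over gRNA1, as under RLE scaling and with no filter, while the classes by whole snoRNAs gave 2. With DESeq2 the spliced classes called were 4, 3 and 5 in the same order of comparisons, and 2 retained classes were called with gRNA2 over the control. With no filter the spliced classes were 4 with gRNA1 and 2 with gRNA2 over the control, with 2 retained classes for gRNA2. RLE scaling gave 2 spliced classes with gRNA2 over the control. The classes by whole snoRNAs gave 4 of the classes without a snoRNA for gRNA1 over the control, and 2 and 1 snoRNA-holding classes for gRNA2 over the control and over gRNA1.

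Deviations of same-numbered libraries correlated at -0.14 to 0.21, against -0.29 to 0.22 for other numbers. The ranges overlapped, and whether same-numbered libraries shared a batch was not tested. With the replicate block 5, 2 and 4 hosts and 1264, 1582 and 1144 of all genes passed in the 3 comparisons. SNHG15 no longer passed with gRNA2 over the control (adjusted p = 0.0592), and there were 1 spliced and 1 retained class for gRNA1 over the control and 0 hosts with unequal class change for gRNA2 over gRNA1.

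Without 1 library at a time, 2 to 5 hosts passed with gRNA1 over the control, 0 to 4 with gRNA2 over the control and 3 to 5 with gRNA2 over gRNA1, and 654 to 1701, 671 to 1817 and 575 to 1215 of all genes. Spliced classes numbered 0 to 3, 0 to 2 and 3 to 4, retained classes 0 to 4, 0 to 1 and 0, and unequal changes 0, 0 to 1 and 0 to 1. SNHG1 passed with gRNA1 over the control and with gRNA2 over gRNA1 in all 15 alternatives, with adjusted p up to 0.00883 and 0.0157. The length offset was run for genes only and for no class, and DESeq2 was not run for unequal class change.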
